A study of Mus musculus with 30 samples.

Results

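The ZFP36 family of mRNA decay factors was read by 5 probes with the gene names Zfp36, Zfp36l1 and Zfp36l2, out of 33453 probes with a gene name for 21689 genes. Zfp36 encodes tristetraprolin, and Zfp36l1 and Zfp36l2 encode its relatives, also known as BRF1 and BRF2. Their paired zinc fingers bind AU-rich elements in the 3′ untranslated regions of short-lived mRNAs, among them those of cytokines and growth factors, and recruit the CCR4-NOT complex, which removes the poly(A) tail so that the mRNA is degraded. Tristetraprolin is a substrate of MK2, the kinase that p38 activates: phosphorylation creates sites for 14-3-3 proteins, slows decay of the bound mRNAs and protects tristetraprolin itself from degradation, and the phosphatase PP2A reverses it. Zfp36 is also an immediate early gene, transcribed within minutes of a stimulus without new protein synthesis.

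The samples were immortalised mouse embryonic fibroblasts (MEFs), wild type or p38α-/- (lacking the kinase that Mapk14 encodes), in 15 groups of 2 arrays each. For wild type MEFs there were 5 stress groups: 45 min in 25 ng/ml anisomycin, an inhibitor of translation given below the dose of full inhibition, 45 min in 100 ng/ml of the cytokine TNFα, and 45 min, 2 h or 8 h in 100 mM NaCl. The same 5 stresses followed pretreatment with SB203580, which inhibits p38α and p38β, and a group with SB203580 and no stress completed the wild type samples. Cells lacking p38α were studied in 4 groups, namely without treatment, with anisomycin, with TNFα and, for 2 h only, with NaCl, at these same doses. The sample titles give SB203580 as 10 mM for 2 h, whereas the treatment protocol gives 10 µM for 30 min before the stress. Every one of the 30 arrays set RNA of its group, labelled with Cy5, against the same Cy3-labelled pool made from 2 wild type cultures without treatment, and no dyes were swapped, so the pool is the only control sample and its own spread enters no test. A value of a gene is the log2 ratio of Cy5 to Cy3, on which 0 is the level of the pool and 1 is a doubling, and with 2 arrays per group the number of arrays limits its precision.

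Mapk14 was between -2.24 and -0.94 (median -1.19) on the 6 p38α-/- arrays whose spot was not marked as an outlier and between 0.05 and 1.31 (median 0.37) on 16 such wild type arrays. Where this probe lies relative to the deleted part is not given in the sources used here. All 10 fibroblast markers looked at (among them Col1a1, Vim and Pdgfrb) were well above background in both channels on all arrays, and so were 5 of 5 leukocyte and 4 of 4 epithelial markers and, in Cy5, 2 of 3 endothelial markers, so detection does not separate the cell types on this platform. The software marked between 6.78% and 44.8% of spots per array as outliers (median 16.0%). Such spots were left out of the fit, which for Zfp36 had consequences given beside its values.

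In the GRCm38.p6 annotation of RefSeq, Zfp36 lies on chromosome 7 from 28376784 to 28379228, Zfp36l1 on chromosome 12 from 80107760 to 80113013 and Zfp36l2 on chromosome 17 from 84183924 to 84187947. The 250 bases before the start of Zfp36 and Zfp36l1 are printed 5′ to 3′ on the minus strand, with matches to the motifs searched in capitals. They are chr7:28379229-28379478 for Zfp36 and chr12:80113014-80113263 for Zfp36l1. The promoter sequences used here held no entry for Zfp36l2.
Zfp36: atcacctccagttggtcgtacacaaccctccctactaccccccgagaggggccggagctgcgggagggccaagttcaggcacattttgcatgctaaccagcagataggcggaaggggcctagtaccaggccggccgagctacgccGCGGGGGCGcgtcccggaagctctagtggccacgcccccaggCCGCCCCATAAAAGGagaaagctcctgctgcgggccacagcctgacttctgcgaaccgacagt
Zfp36l1: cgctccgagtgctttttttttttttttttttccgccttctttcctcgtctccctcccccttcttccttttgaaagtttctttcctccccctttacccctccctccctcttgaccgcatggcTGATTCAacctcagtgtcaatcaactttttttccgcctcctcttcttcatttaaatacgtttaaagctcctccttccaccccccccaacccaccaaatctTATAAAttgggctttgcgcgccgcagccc
Both strands were searched, with N for any base, for the TATA box, with the letters TATAAA, the GC box, with the letters GGGCGG, the element of the EGR factors, GCGNGGGCG, the AP-1 element, with the letters TGANTCA, the cyclic AMP response element (CRE), TGACGTCA, the CArG box of serum response factor and an NF-κB element. The Zfp36 window held 1 EGR match 105 bases before the start, 1 GC box at 63 and 1 CArG box at 58, the last 2 sharing 1 base. Of 32841 windows of the same length, 4.70% held the EGR motif, 32.7% the GC box and 1.47% the CArG box. The Zfp36l1 window held 1 match to the letters TGANTCA at 129 (6.75% of windows) and 1 TATA box at 29 (12.4%). The first of these reads TGATTCA, with T as its middle base. Neither the search nor its share of windows required C or G at that base. The CRE (1.55% of windows) and the NF-κB element (3.90%) had no match in either window. A match is a description of the letters and not a binding site, and both windows differed in base composition, with 64.8% G and C for Zfp36 and 48.4% for Zfp36l1.

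Zfp36 was higher with all 3 stresses at 45 min and with NaCl at 2 h, and most of all with anisomycin. RNA came from whole cultures, so a change in every cell and a change in some of them cannot be told apart. On probe A_52_P80944 the 2 anisomycin arrays gave log2 ratios of 4.42 and 4.08 and the TNFα arrays 2.99 and 3.55. The NaCl arrays gave 1.64 and 1.38 at 45 min, 2.79 and 2.30 at 2 h, and -0.79 and -0.06 at 8 h. On probe A_51_P158538 it was 3.74 and 3.37, 2.26 and 2.73, 1.18 and 0.53, 2.03 and 1.54, and -0.44 and -0.08 in the same order. Both probes therefore gave the same order of the stresses, with the 8 h arrays below the pool. The first probe read above the second on 27 of 30 arrays, by a median of 0.47 in log2 ratio (from -0.35 to 0.86).

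The difference between the probes matters because spots were marked as outliers on some second arrays: both Zfp36 spots with anisomycin, and the A_51_P158538 spot with TNFα, NaCl for 45 min, SB203580 alone and SB203580 with NaCl for 45 min. In the fit without outlier spots, Zfp36 with anisomycin had a value on the first array alone (4.08) and no test. With all spots kept it was 3.90 ± 0.26 (SD, n = 2), with an adjusted p of 6.95e-11 from limma (with 24.9% of all genes called under that setting). The TNFα mean was 3.09 ± 0.66 (SD, n = 2, adjusted p = 1.39e-08) without these spots and 2.88 ± 0.37 (SD, n = 2, adjusted p = 4.64e-09) with them. For NaCl after 45 min it was 1.40 ± 0.02 (SD, n = 2, adjusted p = 0.000352) without these spots, where the first array is the mean of both probes and the second rests on A_52_P80944 alone, so that this SD does not show the spread between arrays. With all spots kept it was 1.18 ± 0.32 (SD, n = 2, adjusted p = 0.000227), or 2.27-fold. After 2 h in NaCl it was 2.16 ± 0.35 (SD, n = 2, adjusted p = 1.97e-06), or 4.48-fold. At 8 h the mean was -0.34 ± 0.39 (SD, n = 2, adjusted p = 0.216) and did not pass.

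Zfp36l1 rose in all 5 wild type stress groups, and most with NaCl for 2 h. Its probes A_51_P235798 and A_51_P235801 differed by at most 0.13 on any array, so the mean of both is given. Anisomycin arrays gave log2 ratios of 1.40 and 1.64, TNFα arrays 1.65 and 1.80, and NaCl arrays 1.01 and 1.14 at 45 min, 2.28 and 2.31 at 2 h, and 0.67 and 1.21 at 8 h. All 10 arrays lay above the pool. The means were 1.52 ± 0.17 (SD, n = 2, adjusted p = 1.6e-05), 1.73 ± 0.11 (SD, n = 2, adjusted p = 3.35e-06), 1.07 ± 0.09 (SD, n = 2, adjusted p = 0.000628), 2.30 ± 0.02 (SD, n = 2, adjusted p = 6.79e-08) and 0.94 ± 0.38 (SD, n = 2, adjusted p = 0.000337). These are ratios of 2.87-fold and 3.31-fold with anisomycin and TNFα and of 4.91-fold with NaCl for 2 h. The 8 h call was lost without the second array (0.67, adjusted p = 0.0573).

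Zfp36l2 passed the test in none of the 15 groups (limma, with 0 of 48 comparisons under an unadjusted p of 0.05). On its 1 probe the log2 ratio was -0.37 and -0.17 on the anisomycin arrays, 0.04 and 0.18 on the TNFα arrays and, on the NaCl arrays, -0.50 and 0.17 at 45 min, -0.49 and 0.13 at 2 h, and -0.46 and -0.06 at 8 h. The group means ran from -0.36 to 0.11. Each had a standard error of 0.21, so the 95% interval with TNFα, for example, was -0.33 to 0.55. This probe was not well above background in Cy5 on the first SB203580 array and the second p38α-/- NaCl array. Its processed Cy5 signal was low on all arrays, with a median of 232 (from 103 to 458). The median Cy5 signal of all spots ran from 832 to 1870 per array. The small ratios of so dim a probe therefore do not show that Zfp36l2 was unchanged.

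**Figure D1:**
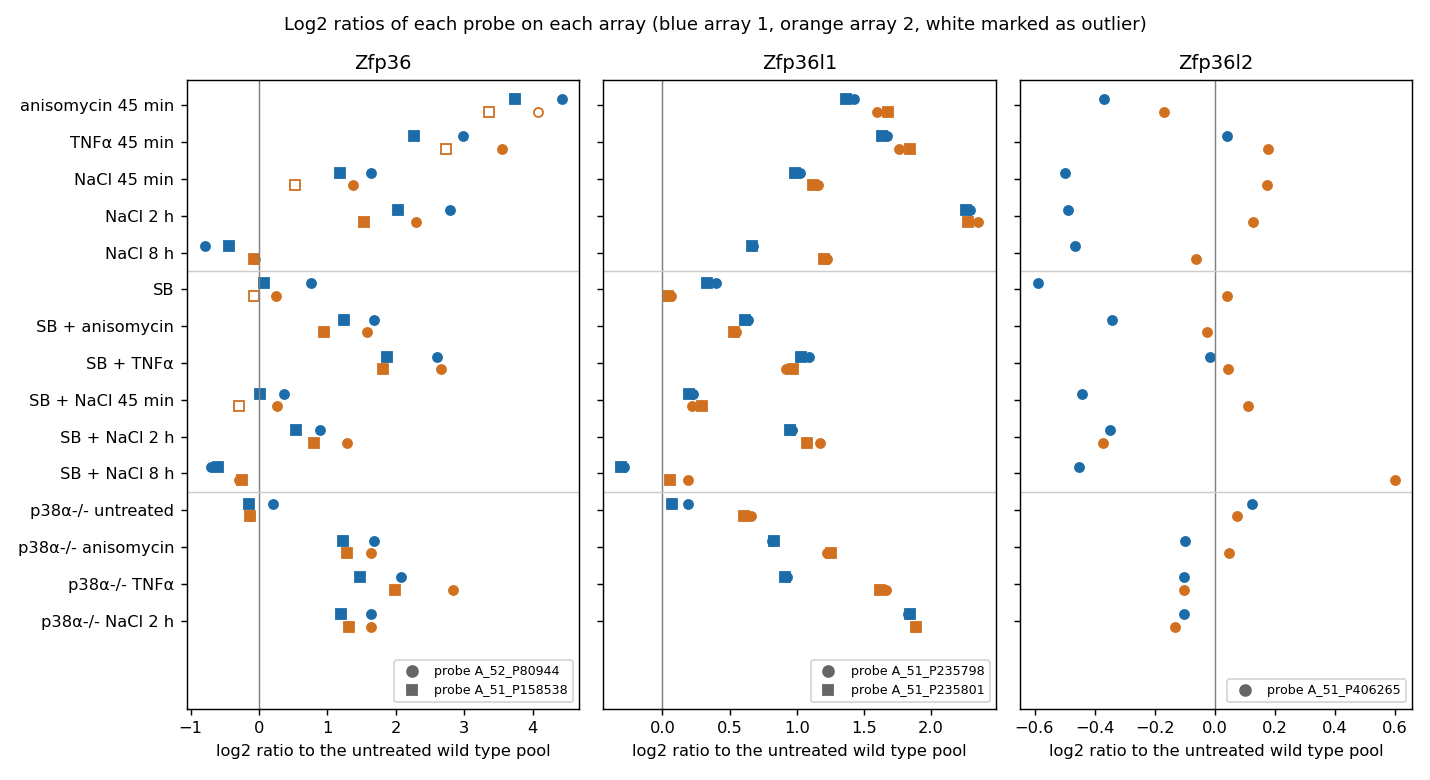
Log2 ratio to the untreated wild type pool (x axis, a different range in each panel) of each probe of Zfp36, Zfp36l1 and Zfp36l2 in the 15 groups (y axis, SB for SB203580). Blue is the first and orange the second array, circles and squares are the probes, and white symbols are spots marked as outliers; Zfp36 reaches 4.42 with anisomycin, Zfp36l1 2.35 with NaCl for 2 h, and Zfp36l2 stays within 0.60 of the pool.

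Over all 15 groups, 20 of the 44 member values that could be tested were called against the pool, all of them higher. Of all genes tested, 12% were called with anisomycin, 11% with TNFα, and 9.88%, 9.92% and 22.2% with NaCl for 45 min, 2 h and 8 h. With SB203580 26.6% were called without stress, 11.7% with anisomycin, 9.52% with TNFα, and 16.8%, 17.1% and 21.2% with NaCl in order of time, and for p38α-/- MEFs 15% untreated and 12.4%, 7.61% and 18% with anisomycin, TNFα and NaCl. The study's threshold of induction, a mean of at least 2.5-fold, was reached by 12 member values, 8 of Zfp36, without the anisomycin group and its single array, and 4 of Zfp36l1. Zfp36 with NaCl for 45 min is counted there at 2.63-fold and was below the threshold, at 2.27-fold, with all spots kept. Of all genes tested, the share that reached the threshold was 0.611% with anisomycin, 0.533% with TNFα, and 0.496%, 0.584% and 1.18% with NaCl in order of time. With SB203580 the share was 0.428% without stress, 0.309% with anisomycin, 0.374% with TNFα and 0.229%, 0.558% and 0.741% with NaCl, and in p38α-/- MEFs it was 0.308% untreated and 0.419%, 0.379% and 0.988% with anisomycin, TNFα and NaCl.

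The order of the groups differed between the 2 members that moved. For Zfp36, with all spots kept, anisomycin was highest (4.08 and 3.72), then TNFα (2.62 and 3.14), then TNFα after SB203580 (2.24 on both arrays), and the arrays of these 3 groups did not overlap. NaCl for 2 h (1.92 and 2.41) and p38α-/- MEFs with TNFα (1.78 and 2.41) overlapped with the last of them. For Zfp36l1, NaCl for 2 h (2.28 and 2.31) was highest, then p38α-/- MEFs with NaCl (1.84 and 1.89), then TNFα (1.65 and 1.80), again with no overlap. TNFα and anisomycin (1.40 and 1.64) did not overlap for Zfp36l1, whereas the groups from anisomycin down to NaCl for 8 h each overlapped with the next. Over the 15 group means the Pearson r was 0.72 between Zfp36 and Zfp36l1, -0.0045 between Zfp36 and Zfp36l2 and -0.11 between Zfp36l1 and Zfp36l2, a description over groups that share 1 control pool.

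Between the stresses at 45 min, Zfp36 was lower with NaCl than with TNFα by a log2 difference of -1.69 (SE 0.26, adjusted p = 0.00611), the single member call among 7 tests, where 0.235% of all genes were called. This call was lost without the second TNFα array (-1.23, adjusted p = 0.096) and without either NaCl array (-1.71, adjusted p = 0.0511, and -1.68, adjusted p = 0.052). With all spots kept, Zfp36 was also lower with NaCl than with anisomycin (-2.72, adjusted p = 1.1e-05, 0.235% of genes called under that setting, 0.289% without outlier spots). Between TNFα and anisomycin 0.183% of genes were called, and Zfp36l1 differed by 0.21 (SE 0.23, adjusted p = 1). For Zfp36, TNFα minus anisomycin with all spots kept was -1.02 (SE 0.25, adjusted p = 0.168) and did not pass. Under that setting 0.198% of genes were called.

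The NaCl series asked how long the response lasted. Zfp36 fell between 2 h and 8 h by 2.51 on the log2 scale (SE 0.26, adjusted p = 2.69e-05) and was lower at 8 h than at 45 min by a difference of -1.74 (SE 0.26, adjusted p = 0.000477). Zfp36l1 fell by 1.35 between 2 h and 8 h (SE 0.23, adjusted p = 0.00105), but its 8 h and 45 min values differed by -0.13 (SE 0.23, adjusted p = 0.862), and both 8 h arrays were above the pool. From 45 min to 2 h the differences were 0.77 (SE 0.26, adjusted p = 0.58) for Zfp36 and 1.22 (SE 0.23, adjusted p = 0.0569) for Zfp36l1. With the replicate number as a block, the Zfp36l1 rise passed (adjusted p = 0.0144). It also passed in limma with outlier spots kept (adjusted p = 0.0356) and with only spots well above background (adjusted p = 0.0402). The same held on the deposited normalised values (adjusted p = 0.0473), on the brightest probe (adjusted p = 0.0281) and with scanning batch as a random block (adjusted p = 0.0249).

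After SB203580 both genes again fell between 2 h and 8 h, Zfp36 by 1.34 (SE 0.26, adjusted p = 0.00421) and Zfp36l1 by 1.13 (SE 0.23, adjusted p = 0.0045). Both calls were lost without the second 2 h array (-1.18, adjusted p = 0.0713, and -1.05, adjusted p = 0.0648) and without the first 8 h array (-1.15, adjusted p = 0.0624, and -0.92, adjusted p = 0.0778). From 45 min to 2 h with SB203580 the difference for Zfp36l1 was 0.81 (SE 0.23, adjusted p = 0.149, and 0.0381 with the replicate block). In all, 5 of 18 member comparisons of times were called. Of all genes, 0.054%, 7.81% and 7.53% were called from 45 min to 2 h, from 2 h to 8 h and from 45 min to 8 h without the inhibitor, and 0.343%, 7.32% and 6.55% with it. With the replicate block the shares for 45 min to 2 h were 0.131% and 0.783%.

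**Figure D2:**
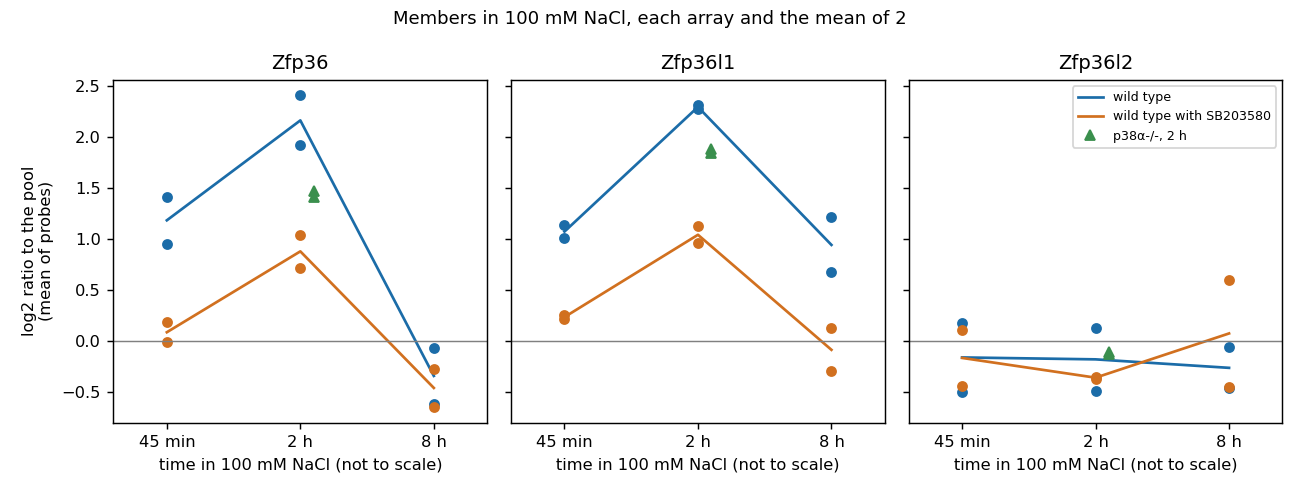
Log2 ratio to the pool (y axis, mean of probes with all spots kept) of the 3 members after 45 min, 2 h and 8 h in 100 mM NaCl (x axis, not to scale). Points are arrays, lines join the means of 2 arrays for wild type MEFs (blue) and wild type MEFs with SB203580 (orange), and triangles are p38α-/- MEFs at 2 h; the blue line is at 2.16 for Zfp36 and 2.30 for Zfp36l1 at 2 h.

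SB203580 was used to ask how much of each response needs p38 activity. With the inhibitor alone no member passed against the pool: Zfp36 was 0.42 and 0.25 (adjusted p = 0.192, but 0.0444 with a mean of 0.51 on probe A_52_P80944 alone), Zfp36l1 0.36 and 0.05 (adjusted p = 0.351, but 0.0385 after normexp and loess and 0.0339 on the deposited normalised values) and Zfp36l2 -0.59 and 0.04 (adjusted p = 0.35). With stress, the level of Zfp36l1 after SB203580 was 0.63 and 0.54 on the anisomycin arrays, 1.06 and 0.95 on the TNFα arrays and, on the NaCl arrays, 0.21 and 0.26 at 45 min, 0.96 and 1.12 at 2 h, and -0.30 and 0.12 at 8 h. Under each of the 5 stresses both of these arrays lay below both arrays without the inhibitor. For Zfp36 on probe A_52_P80944 the values after SB203580 were 1.68 and 1.58, 2.60 and 2.67, 0.36 and 0.26, 0.89 and 1.29, and -0.70 and -0.29 in the same order, and with all spots and both probes averaged the arrays were below those without the inhibitor in 4 of the 5 stresses, the exception being NaCl for 8 h.

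Against the pool, the members remained called after SB203580 for Zfp36 with anisomycin (1.36 ± 0.14, SD, n = 2, adjusted p = 0.000362), TNFα (2.24, adjusted p = 1.61e-06) and NaCl for 2 h (0.88 ± 0.23, SD, n = 2, adjusted p = 0.00453), the last lost without the second array (0.71, adjusted p = 0.189). Zfp36l1 was called with the same 3 treatments, at 0.58 ± 0.06 (SD, n = 2, adjusted p = 0.025), 1.00 ± 0.08 (SD, n = 2, adjusted p = 0.00126) and 1.04 ± 0.12 (SD, n = 2, adjusted p = 0.00039). Its anisomycin call was lost without either array (0.54, adjusted p = 0.247, and 0.63, adjusted p = 0.174) and its TNFα call without the first (0.95, adjusted p = 0.0842). With NaCl for 45 min, Zfp36 at 0.22 (adjusted p = 0.45) and Zfp36l1 at 0.23 (adjusted p = 0.341) did not pass, though on the deposited normalised values Zfp36l1 did, at 0.44 (adjusted p = 0.0432).

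The difference between SB203580 with stress and stress alone passed for 0 of 14 member comparisons in limma without the replicate block. Of these, 8 of 14 were under an unadjusted p of 0.05. Few genes passed at all: 0.0204% with anisomycin, 0% with TNFα, 0% and 0% with NaCl for 45 min and 2 h, and 0.206% after 8 h. For Zfp36l1 the differences were -0.93 (95% interval -1.41 to -0.46, adjusted p = 0.717) with anisomycin, -0.72 (-1.20 to -0.25, adjusted p = 1) with TNFα, and -0.84 (-1.32 to -0.36, adjusted p = 1), -1.25 (-1.73 to -0.78, adjusted p = 0.164) and -1.03 (-1.51 to -0.55, adjusted p = 0.0883) with NaCl in order of time. Each of these intervals, taken for a single gene, lay below 0. The first wild type arrays of all groups were scanned in 1 batch and the second in another, and within these batches the Zfp36l1 differences were -0.77 and -1.10, -0.59 and -0.86, -0.79 and -0.88, -1.32 and -1.19, and -0.97 and -1.09 in the same order. With the replicate number as a block, the NaCl differences passed at 2 h (adjusted p = 0.0134, with 0.0179% of genes called) and at 8 h (adjusted p = 0.00946, with 0.583% called). The 8 h difference also passed without the first array of NaCl alone (-1.30, adjusted p = 0.0303).

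For Zfp36 the largest difference was with anisomycin, where the fit without outlier spots had no test. With all spots kept it was -2.54 (95% interval -3.06 to -2.02, adjusted p = 5.8e-05, with 0.0415% of genes called), and it was -2.63 and -2.46 within the 2 scanning batches. With NaCl it was -1.17 (-1.73 to -0.62, adjusted p = 1) after 45 min, -1.28 (-1.84 to -0.73, adjusted p = 0.407) after 2 h and -0.12 (-0.67 to 0.44, adjusted p = 1) after 8 h. The TNFα difference was -0.85 (-1.41 to -0.30, adjusted p = 1) without outlier spots and -0.64 (-1.16 to -0.13, adjusted p = 1) with them. Within the batches, all spots kept, it was -0.39 and -0.90 with TNFα, and with NaCl -1.23 and -0.97 at 45 min, -1.70 and -0.87 at 2 h, and -0.03 and -0.20 at 8 h. In percent of the wild type log2 ratio, with all spots kept, Zfp36 after SB203580 was at 34.9% with anisomycin, 77.6% with TNFα, 7.22% with NaCl for 45 min (16.0% without outlier spots) and 40.6% after 2 h. The same share for Zfp36l1 was 38.5%, 58.1%, 21.8% and 45.4%. Among these 4 treatments it was highest with TNFα and lowest with NaCl for 45 min for both genes. The level with SB203580 alone (0.25 for Zfp36 and 0.21 for Zfp36l1) was not subtracted. These are shares of a log2 ratio and not of the fold change. The share was computed only where the wild type log2 ratio was at least 1, which left out NaCl for 8 h. There Zfp36l1 was at 0.94 without the inhibitor and at -0.09, below the pool, with it.

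The Zfp36l2 differences between SB203580 with stress and stress alone ran from -0.18 with NaCl for 2 h to 0.34 with NaCl for 8 h. Every adjusted p was 1. Intervals such as -0.80 to 0.44 at 2 h would hold a difference of the size seen for Zfp36l1 with TNFα.

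**Figure D3:**
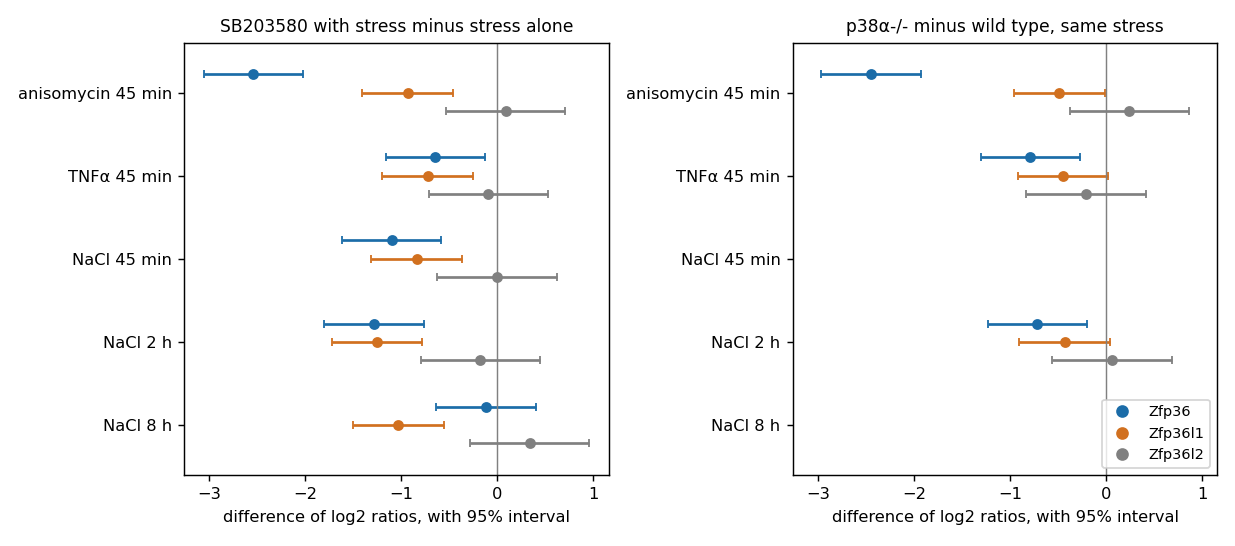
Difference of log2 ratios (x axis) between SB203580 with stress and stress alone (left) and between p38α-/- and wild type MEFs under the same stress (right) for each stress (y axis), with all spots kept. Points are differences of means of 2 arrays and bars are 95% intervals from limma; Zfp36 with anisomycin is at -2.54 on the left and -2.45 on the right, and p38α-/- MEFs were not measured with NaCl for 45 min or 8 h.

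Taking SB203580 alone as the starting level, the stress raised Zfp36 with TNFα by 1.90 (SE 0.26, adjusted p = 0.00191), the single call among 15. The same SB203580 group served every stress, here and in the differences of induction, so it was not matched to each stress time. The shares of all genes called were 0.014% with anisomycin, 0.0983% with TNFα, and 0.0435%, 2.87% and 7.78% with NaCl in order of time. Zfp36l1 with NaCl for 2 h was at 0.83 (SE 0.23, adjusted p = 0.0561) and passed with the replicate block (adjusted p = 0.00954, with 5.16% of genes called). With NaCl for 45 min the steps were -0.11 (SE 0.26) for Zfp36 and 0.02 (SE 0.23) for Zfp36l1.

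The difference of inductions, which sets this step against the step from the pool to stress without the inhibitor, passed for both genes with NaCl for 2 h: -1.62 (SE 0.32, adjusted p = 0.0212) for Zfp36 and -1.46 (SE 0.28, adjusted p = 0.0165) for Zfp36l1. Of 14 such tests these 2 were called, with 1.65% of all genes. Within the scanning batches the Zfp36l1 value was -1.68 and -1.24, and that of Zfp36 was -2.11 and -1.13. Both calls were lost without the first array of NaCl for 2 h (-1.37, adjusted p = 0.146, and -1.48, adjusted p = 0.0859), of SB203580 (-1.54, adjusted p = 0.186, and -1.31, adjusted p = 0.178) or of NaCl for 2 h after SB203580 (-1.46, adjusted p = 0.143, and -1.38, adjusted p = 0.131). Some inductions that did not pass did so when 1 array was left out: Zfp36l1 with anisomycin without the second SB203580 array (-1.30, adjusted p = 0.0313), Zfp36 with TNFα without the first TNFα array (-1.65, adjusted p = 0.0437), Zfp36 with NaCl for 45 min without the second SB203580 array (-1.59, adjusted p = 0.0432), and Zfp36l1 with NaCl for 8 h without the first NaCl array (-1.51, adjusted p = 0.0207) or the second SB203580 array (-1.39, adjusted p = 0.0249). For Zfp36 with TNFα, the wild type array left there rests on probe A_52_P80944 alone, whereas SB203580 with TNFα averages both probes. The other shares of all genes called were 0.583% with anisomycin, 0.651% with TNFα, and 0.0936% and 0.295% with NaCl for 45 min and 8 h.

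With the replicate block, the member calls among differences of induction, those of the p38α-/- MEFs included, went from 2 to 8. Zfp36l1 also passed with anisomycin (-1.14, adjusted p = 0.0127), TNFα (-0.93, adjusted p = 0.0287) and NaCl for 45 min (-1.05, adjusted p = 0.0243) and 8 h (-1.24, adjusted p = 0.00855), and Zfp36 with NaCl for 45 min (-1.51, adjusted p = 0.0311). Under the block 3.63%, 3.28%, 1.73% and 3.07% of all genes were called in these comparisons. Zfp36 with anisomycin, with all spots kept, was at -2.79 (SE 0.30, adjusted p = 0.000289), where 8.43% of genes were called.

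The p38α-/- MEFs asked the same question by removing the kinase. Untreated, they were near the pool for Zfp36 (0.03 and -0.13, adjusted p = 0.897) and Zfp36l2 (0.13 and 0.07, adjusted p = 0.815), while Zfp36l1 was at 0.13 and 0.63 (adjusted p = 0.119, but 0.0218 after normexp and loess, 0.0133 on the deposited normalised values and 0.0363 with the replicate block, under which 21.2% of genes were called). Under stress Zfp36 was 1.46 on both anisomycin arrays, 1.78 and 2.41 on the TNFα arrays and 1.42 and 1.47 on those of 2 h in NaCl. Zfp36l1 was 0.82 and 1.24, 0.92 and 1.64, and 1.84 and 1.89. All 12 of these arrays were above the pool and below the wild type arrays of the same stress.

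Against the pool these 6 means were called, with adjusted p from 7.95e-07 for Zfp36l1 with NaCl to 0.000434 for Zfp36l1 with anisomycin, which was lost without the second array (0.82, adjusted p = 0.0564). In a fit on the p38α-/- arrays alone, Zfp36l1 no longer passed with anisomycin (adjusted p = 0.0589) or TNFα (adjusted p = 0.054). Against the unstressed p38α-/- MEFs, 4 of 9 were called: Zfp36 with anisomycin (1.51, SE 0.26, adjusted p = 0.033), TNFα (2.15, SE 0.26, adjusted p = 0.000506) and NaCl (1.50, SE 0.26, adjusted p = 0.00782), and Zfp36l1 with NaCl (1.48, SE 0.23, adjusted p = 0.00248). Of all genes 0.0847%, 0.078% and 1.08% were called. The spread is shared with the wild type arrays in this fit, and in a fit on the p38α-/- arrays alone none of the 4 passed (adjusted p = 0.409, 0.107, 0.125 and 0.225). The Zfp36 anisomycin call was also lost after normexp and loess (1.39, adjusted p = 0.065) and without any 1 of its 4 arrays (1.43 to 1.59, adjusted p from 0.147 to 0.255). The Zfp36 NaCl call was lost without either untreated array (1.58, adjusted p = 0.0598, and 1.42, adjusted p = 0.061) or the second NaCl array (1.47, adjusted p = 0.112), and the Zfp36l1 NaCl call without the first untreated (1.23, adjusted p = 0.0663) or the second NaCl array (1.46, adjusted p = 0.0509).

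Between genotypes at the same stress, 0 of 8 member comparisons passed in limma, with 3 of 8 under an unadjusted p of 0.05, while 1.27% of all genes passed with anisomycin, 0.414% with TNFα and 0.697% with NaCl. For Zfp36 the p38α-/- minus wild type difference was -0.995 (95% interval -1.55 to -0.44, adjusted p = 0.156) with TNFα and -0.72 (-1.27 to -0.16, adjusted p = 0.28) with NaCl. Without the first wild type TNFα array the TNFα difference was -1.46. The wild type array left there rests on A_52_P80944 alone, the probe that read higher on 27 of 30 arrays, whereas the p38α-/- mean averages both probes. With all spots kept the Zfp36 anisomycin difference was -2.45 (-2.96 to -1.93, adjusted p = 2.31e-05, with 1.57% of genes called) and the TNFα difference was -0.79 (-1.31 to -0.27, adjusted p = 0.257). The Zfp36l1 differences were smaller, at -0.49 (-0.96 to -0.01, adjusted p = 0.387), -0.45 (-0.92 to 0.03, adjusted p = 0.69) and -0.43 (-0.91 to 0.04, adjusted p = 0.474) with anisomycin, TNFα and NaCl. Those of Zfp36l2 were 0.24, -0.21 and 0.06, each with an SE of 0.30.

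Scanning batch touches this comparison, since the only batch with both genotypes under a given stress held the first p38α-/- and the second wild type arrays. Within it, the Zfp36 difference, all spots kept, was -2.27 for anisomycin, -1.37 for TNFα and -0.50 for NaCl. That of Zfp36l1 was -0.82, -0.88 and -0.47. In percent of the wild type log2 ratio, Zfp36 in p38α-/- MEFs was at 37.3% under anisomycin, 72.6% under TNFα and 66.8% under NaCl. For Zfp36l1 the shares were 68.0%, 74.1% and 81.2%. The level of untreated p38α-/- MEFs (-0.05 for Zfp36 and 0.38 for Zfp36l1) was not subtracted. Both arms share the wild type arrays, so their values are set side by side here and were not correlated. The difference of inductions between genotypes passed for 0 of 8 member comparisons in limma, with 4 of 8 under an unadjusted p of 0.05 and with 0.542%, 0.45% and 0% of all genes called. With all spots kept Zfp36 with anisomycin passed (-2.39, SE 0.30, adjusted p = 0.00046, 7.2% of genes called), and with the replicate block so did Zfp36l1 with anisomycin (-0.87, adjusted p = 0.0367, 3.15% called).

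Lists of other genes of the decay pathway were read against the share of all genes called in the same groups, which was 12% with anisomycin, 11% with TNFα and 9.88%, 9.92% and 22.2% with NaCl in order of time. The lists are short and counts this small were not compared with those shares by a test. Of the deadenylation list (CCR4-NOT subunits, Tob1, Tob2, Pan2, Parn and Pabpc1), 2 of 13 measured members rose and 3 fell with anisomycin, 2 and 1 of 13 with TNFα, and 1 and 1 of 8, 1 and 2 of 15 and 2 and 3 of 13 with NaCl in order of time. The list median was between -0.10 and -0.04 in these groups, beside medians of all genes between 0 and 0.014. Tob1, which bridges poly(A)-binding protein and the CCR4-NOT nuclease, rose most, by 0.89 (SE 0.17, adjusted p = 0.00423) with TNFα, 1.88 (SE 0.17, adjusted p = 8.03e-06) with NaCl for 2 h and 1.20 (SE 0.17, adjusted p = 0.000125) after 8 h. Cnot10, a scaffold subunit, fell in each of the 5 groups, from -0.70 (SE 0.10, adjusted p = 0.000352) with NaCl for 45 min to -0.33 (SE 0.10, adjusted p = 0.0349) after 2 h. Pabpc1, the cytoplasmic poly(A)-binding protein, rose with anisomycin (0.89, SE 0.22, adjusted p = 0.0156) and TNFα (0.81, SE 0.22, adjusted p = 0.0264).

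In the decapping list, 2 of 6, 1 of 6, 1 of 5, 2 of 7 and 2 of 7 measured members rose in the same 5 groups and 1 fell, after 8 h, beside 9.88% to 22.2% of all genes called in either direction. Patl1 (AV312086 in the array files), a decapping activator, rose in all of them, from 0.65 (SE 0.15, adjusted p = 0.00864) with anisomycin to 1.43 (SE 0.15, adjusted p = 2.35e-06) with NaCl for 8 h. Dcp1b, a decapping cofactor, rose with NaCl for 2 h (0.43, SE 0.11, adjusted p = 0.0186) and fell after 8 h (-0.82, SE 0.11, adjusted p = 3.65e-05). Of the exosome list, the machinery of 3′ decay, 2 members fell in each of the first 4 groups, of 7, 7, 6 and 9 measured, and after 8 h 1 of 6 rose and 1 fell, beside the same shares of all genes. Skiv2l, a helicase of the exosome's partner complex, fell in all 5, from -0.79 (SE 0.09, adjusted p = 4e-06) after 8 h to -0.32 (SE 0.09, adjusted p = 0.0263) after 2 h. Exosc8 fell with NaCl for 45 min (-1.61, SE 0.21, adjusted p = 0.000312) and 2 h (-0.94, SE 0.21, adjusted p = 0.00806). The member that rose after 8 h was Exosc6 (1.23, SE 0.16, adjusted p = 5.39e-05).

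Of other proteins that bind AU-rich mRNAs, 3 of 9 measured rose and 1 fell at 8 h in NaCl, where 22.2% of all genes were called and where more of the list was measured than in the other groups. Tia1, a translational silencer, fell to -1.05 (SE 0.12, adjusted p = 1e-05), while Elavl1, the stabilising factor HuR, rose to 0.62 (SE 0.20, adjusted p = 0.0306). Zc3h12a (BC036563 in the array files), the endonuclease Regnase-1, rose with TNFα (0.90, SE 0.21, adjusted p = 0.0103) and with NaCl for 45 min (0.93, SE 0.21, adjusted p = 0.00884).

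Among the kinases and partners of tristetraprolin, 4 of 11 rose and 1 fell after 8 h in NaCl, beside 22.2% of all genes called. Map2k3, an upstream kinase of p38, was at 1.21 (SE 0.17, adjusted p = 0.000192), Mapk14 itself at 1.11 (SE 0.24, adjusted p = 0.00784), Ppp2ca, the PP2A catalytic subunit, at 1.07 (SE 0.16, adjusted p = 0.000153) and the 14-3-3 gene Ywhag at 0.86 (SE 0.16, adjusted p = 0.00245). Mapkapk2, which encodes MK2, fell with anisomycin (-0.39, SE 0.10, adjusted p = 0.0184) and with NaCl for 45 min (-0.52, SE 0.10, adjusted p = 0.00442). The 14-3-3 gene Ywhaz rose with NaCl for 45 min (1.13, SE 0.25, adjusted p = 0.00817), and Map2k6 fell (-0.76, SE 0.21, adjusted p = 0.0287). Of all genes, 12% were called with anisomycin and 9.88% with NaCl for 45 min. With NaCl for 2 h, 2 of 8 rose, Ppp2ca (0.54, SE 0.16, adjusted p = 0.0395) and Mapkapk5 (0.38, SE 0.10, adjusted p = 0.0179).

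Of 25 mRNAs listed as having AU-rich elements, those measured were called higher in 3 of 17 with anisomycin, 3 of 18 with TNFα, and 3 of 15, 5 of 20 and 6 of 22 with NaCl in order of time, and 1 was lower with TNFα and 1 after 8 h, beside 12%, 11%, 9.88%, 9.92% and 22.2% of all genes called in either direction. Their median log2 ratio lay between 0.12 and 0.30, beside at most 0.014 for all genes. Fos, an AP-1 subunit, was at 3.23 (SE 0.33, adjusted p = 1.35e-05) with TNFα, 3.11 (SE 0.33, adjusted p = 7e-05) with NaCl for 45 min and 3.96 (SE 0.33, adjusted p = 1.2e-06) after 2 h. Dusp1, a phosphatase that switches off p38 and JNK, was at 3.42 (SE 0.15, adjusted p = 6.53e-08) after 2 h in NaCl and 2.84 (SE 0.15, adjusted p = 1.52e-07) after 8 h, and Ptgs2, the inducible cyclooxygenase, at 3.05 (SE 0.37, adjusted p = 4.45e-05) and 2.92 (SE 0.37, adjusted p = 1.6e-05). At 8 h Ptgs2 and Dusp1 were thus still above the pool. The Zfp36 mean there was not called different from the pool in limma (-0.34, adjusted p = 0.216). Zfp36l1 was still called higher (0.94, adjusted p = 0.000337), and a link between these values was not tested. Cxcl2, a neutrophil chemokine, rose with TNFα (1.55, SE 0.22, adjusted p = 0.000274).

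The genes whose group means ran most like those of Zfp36 included the immediate early genes Atf3, Egr1 and Junb. Among 692 named genes with means in at least 12 groups and an SD over groups of at least 0.5, the highest Pearson r was that of Atf3 (0.921, 13 groups), then Phlda1 (0.913, 12 groups), Egr1 (0.896, 14 groups), Junb (0.895, 15 groups) and Trib1 (0.892, 15 groups). Atf3, Egr1 and Junb encode transcription factors and Trib1 a pseudokinase. For Zfp36l1 they were Plk2 (0.910, 14 groups), a polo-like kinase, Axud1 (0.872, 15 groups), Myc (0.829, 15 groups), Trib1 (0.829, 15 groups) and Smad7 (0.806, 15 groups), an inhibitor of TGF-β signalling. Trib1 was the single gene in both lists. For Zfp36l2 the highest value was 0.652, for 4921520P21Rik, followed by Olfr366, Eno2, Stx11 and Slfn4 down to 0.561. These r values describe group means that share a control pool and carry no test, and the Zfp36 mean with anisomycin stands on 1 array there.

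**Figure D4:**
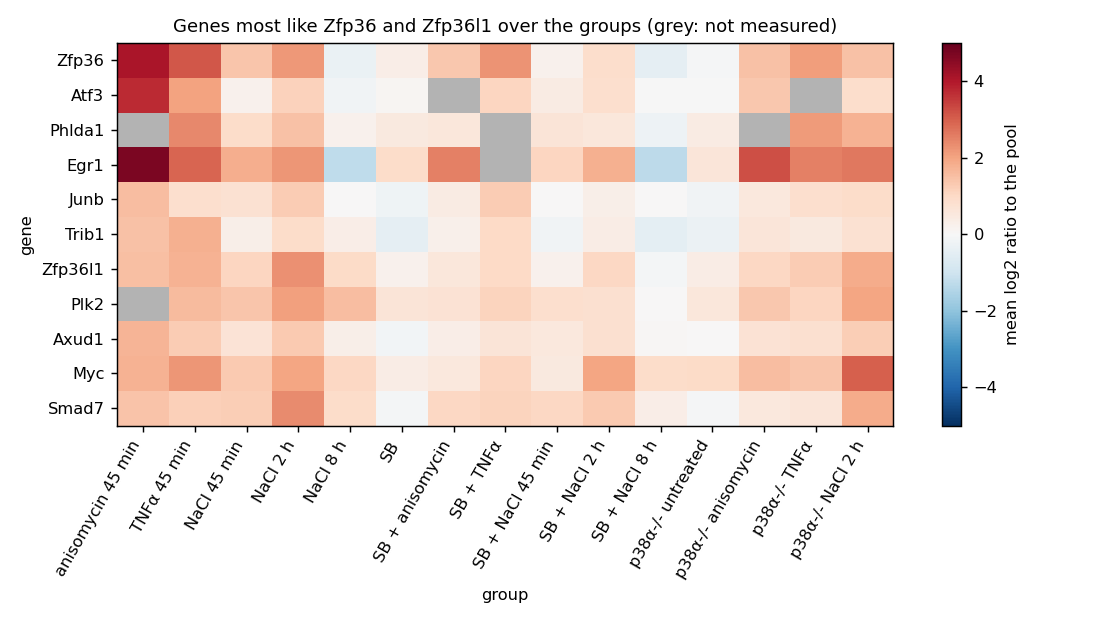
Mean log2 ratio to the pool (colour scale) of Zfp36, Zfp36l1 and the genes most like them (y axis) in the 15 groups (x axis), with grey where no array had a spot free of outlier marks. Zfp36 and Egr1 are darkest with anisomycin, at 4.08 and 4.71, and Zfp36l1 and Smad7 are darkest with NaCl for 2 h.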

How the data were processed

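Each of 30 two-colour arrays compared Cy5-labelled RNA of 1 of 15 groups, 2 arrays each, with Cy3-labelled RNA of 1 untreated wild type pool. Per the labels and methods the replicates were independent experiments. The p-values measure only the spread between replicates, pooled over the groups, and any difference between scanning batches is part of that spread. The authors scanned and quantified the arrays with Agilent Feature Extraction, version 9.1 in the submitters' processing notes and 8.1.1.1 in the file headers. The deposited log10 ratios of red to green were multiplied to log2, outlier-marked spots were dropped if the mark was in Cy3 or Cy5, and spots were averaged to probes and probes to genes. The deposited intensity columns (processed, mean and background signals) gave the detection checks and the normexp alternative (offset 50). The series matrix, in which the authors deposited normalised log2 values, was an alternative. The methods name background correction and VSN (variance stabilisation) for the normalised data, and whether the matrix holds exactly those values was not settled.

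Group means were fitted with limma 3.58.1 (R 4.3.3, residual df 15, prior df 3.12) and tested with Benjamini-Hochberg adjustment over all genes measured on the arrays compared, at 0.05. Python 3.11.15, numpy 2.4.6, pandas 2.3.3 and matplotlib 3.10.9 did the rest, and the fit was tested on simulated data. Deviations of same-numbered arrays correlated above 0.1 in 55 of 55 pairs within wild type (median 0.46) and 6 of 6 within p38α-/- (median 0.25), but in 6 of 44 across genotypes. Same-numbered arrays thus shared variation within a genotype, and deviations were not independent between groups. In wild type the number was also the scanning batch, so paired experiments and scanning batch cannot be told apart and the replicate block there is a block for both. The main fit had no block for the replicate number, so variation shared by same-numbered arrays stayed in its spread. A comparison that did not pass there may pass with the replicate block, which is given as an alternative. Scanning batches follow the scan times in the file headers. The members and lists were chosen with earlier results of these data known. Named genes are the members, Mapk14, genes from the lists and the 5 genes most like each member. The list genes were taken from the up to 4 called genes per list and wild type stress with the largest change, and not all of these are named. Of 16836 NM accessions, 15887 were in the RefSeq table, which gave current names and loci. Promoter windows were matched for Zfp36 and Zfp36l1. Alternatives were the background correction, the deposited table, outlier spots kept, dim spots out, the probe choice, the replicate and scanning blocks, the samples fitted and leaving out each array.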

Additional observations from a re-analysis of the deposited data

Results flagged for a closer look

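The effect of a stress differed between arms or times, by the fit's own test, for these values. The difference of inductions with and without SB203580 at 2 h in NaCl was -1.62 for Zfp36 (adjusted p = 0.0212) and -1.46 for Zfp36l1 (adjusted p = 0.0165), lower with the inhibitor in both scanning batches. Both calls were lost without the first array of NaCl, of SB203580 or of both agents. Without the inhibitor, the 8 h value differed from the 2 h value by -2.51 for Zfp36 (adjusted p = 2.69e-05) and -1.35 for Zfp36l1 (adjusted p = 0.00105), and from the 45 min value by -1.74 for Zfp36 (adjusted p = 0.000477). With the inhibitor, 8 h minus 2 h was -1.34 for Zfp36 (adjusted p = 0.00421) and -1.13 for Zfp36l1 (adjusted p = 0.0045), calls that were lost without the second 2 h or the first 8 h array. Zfp36l2 with TNFα was above the pool on both wild type arrays and below it on both p38α-/- arrays, a difference of -0.21 that was singled out by these directions and not by a test, and the fitted difference had an adjusted p of 0.927. With 2 arrays per group no array could be examined as an outlier within its group.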

How the results depend on the processing

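Under every alternative run, no called member value changed its sign. Left-out arrays, 30 in turn, gave 19 to 21 calls against the pool, 0 to 1 between SB203580 with stress and stress alone, 0 to 1 between genotypes, 1 to 4 between stressed and unstressed p38α-/- MEFs, 1 to 2 between SB203580 with and without stress, 0 to 5 among differences of induction, 3 to 6 among times, 0 to 2 among stresses and 11 to 13 member values at 2.5-fold or more. Among differences of induction the count was 0 without the first array of NaCl for 2 h, of SB203580 or of both agents at 2 h, 4 without the second anisomycin or the first TNFα array and 5 without the second SB203580 array. Without the second anisomycin array, both of whose Zfp36 spots carry outlier marks, there was 1 call each between SB203580 with stress and stress alone and between genotypes, and 2 between stresses. For SB203580 with stress against stress alone, leaving out either TNFα array of p38α-/- MEFs, which is no part of the comparison itself, also gave 1. Likewise, 2 calls between SB203580 with and without stress arose without either array of TNFα or NaCl for 8 h in wild type MEFs, or of untreated or TNFα-treated p38α-/- MEFs. A lone array was assumed to vary like those of the other groups. With 2-fold in place of 2.5-fold, 17 member values passed.

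The 0 calls between SB203580 with stress and stress alone became 1 on the deposited normalised values, with outlier spots kept, with scanning batch as a random block and in a fit on the compared groups, 2 with the replicate block and 4 with outlier spots kept and the block together, a pairing of settings chosen after seeing the data. The 0 calls between genotypes became 1 on the deposited normalised values and with outlier spots kept, without or with the block. The 4 calls between stressed and unstressed p38α-/- MEFs became 0 in a fit on those arrays alone, which leaves fewer arrays to estimate the spread. The 1 call between SB203580 with and without stress became 2 with spots well above background only, with the replicate block, with the block and outlier spots kept, with the random block and in a fit on the compared groups. The 2 differences of induction became 5 after normexp and loess, 11 on the deposited normalised values, 8 with outlier spots kept, 4 with spots well above background only, 8 with the replicate block, 12 with both, 5 with the random block and 4 in a fit on the compared groups. The 1 call between stresses became 2 on the deposited normalised values and with outlier spots kept, without or with the block, and 0 with the brightest probe of each gene, which has no Zfp36 test there. With that probe 7 member values reached 2.5-fold. Single calls not given with the results also moved. Zfp36l1 with TNFα against untreated p38α-/- MEFs passed with outlier spots kept and the block together, a setting chosen after seeing the data (0.90, adjusted p = 0.0427), as did Zfp36l2 with SB203580 and NaCl for 2 h against the pool (-0.36, adjusted p = 0.0493). Zfp36 with SB203580 and NaCl for 8 h passed against the pool on its brightest probe (-0.43, adjusted p = 0.0483) and against SB203580 alone on probe A_52_P80944 (adjusted p = 0.0297). Where no construction is named, the cause was not tested. Beside the calls given with the results, the replicate block changed no other call.

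Signs turned only among values that did not pass the test. After normexp and loess, Zfp36l2 became -0.016 with TNFα, -0.045 with SB203580 and TNFα and -0.0044 with SB203580 and NaCl for 8 h, and Zfp36l1 became 0.021 in the last group. By the same correction, Zfp36l2 became 0.018 between SB203580 with NaCl and NaCl alone at 45 min, -0.0045 between genotypes with NaCl, -0.052 between SB203580 with and without anisomycin and 0.030 between 2 h and 45 min. The step of Zfp36l1 from SB203580 to SB203580 with NaCl for 45 min became -0.028 after normexp and loess, -0.0025 on the deposited normalised values and -0.0059 on its brightest probe. On the deposited normalised values Zfp36l2 was -0.0050 with SB203580 and TNFα, and with the random block it was -0.039 between genotypes with NaCl. Probe A_51_P158538 alone gave -0.14 for Zfp36 with SB203580 and NaCl for 45 min, and probe A_52_P80944 alone gave 0.035 in untreated p38α-/- MEFs.

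Values whose sign turned when 1 array was left out are given as ranges over the arrays left out. Against the pool, Zfp36l2 with NaCl for 45 min was between -0.50 and 0.17, Zfp36l2 with NaCl for 2 h between -0.49 and 0.13 and Zfp36l2 with SB203580 alone between -0.59 and 0.041. In the same comparison, Zfp36l2 with SB203580 and TNFα was between -0.016 and 0.045, Zfp36l2 with SB203580 and NaCl for 45 min between -0.44 and 0.11 and Zfp36l1 with SB203580 and NaCl for 8 h between -0.30 and 0.12. In the same comparison, Zfp36l2 with SB203580 and NaCl for 8 h was between -0.45 and 0.60, Zfp36 in untreated p38α-/- MEFs between -0.13 and 0.027 and Zfp36l2 in p38α-/- MEFs with anisomycin between -0.098 and 0.046. Between SB203580 with stress and stress alone, Zfp36l2 with anisomycin was between -0.073 and 0.24, Zfp36l2 with NaCl for 45 min between -0.34 and 0.33 and Zfp36l2 with NaCl for 2 h between -0.49 and 0.13. In the same comparison, Zfp36 with NaCl for 8 h was between -0.39 and 0.16 and Zfp36l2 with NaCl for 8 h between -0.19 and 0.86. Between genotypes, Zfp36l2 with NaCl for 2 h was between -0.25 and 0.37. Between SB203580 with and without stress, Zfp36l2 with anisomycin was between -0.22 and 0.41, Zfp36l2 with TNFα between -0.027 and 0.60 and Zfp36l1 with NaCl for 45 min between -0.13 and 0.18. In the same comparison, Zfp36l2 with NaCl for 45 min was between -0.21 and 0.42, Zfp36l2 with NaCl for 2 h between -0.40 and 0.23 and Zfp36l2 with NaCl for 8 h between -0.18 and 0.87. For the difference of inductions with SB203580, Zfp36l2 with TNFα was between -0.14 and 0.49, Zfp36l2 with NaCl for 45 min between -0.066 and 0.61 and Zfp36l2 with NaCl for 2 h between -0.22 and 0.41. For that between genotypes, Zfp36l2 with NaCl for 2 h was between -0.35 and 0.27. Between times in NaCl, Zfp36l2 for 2 h minus 45 min was between -0.35 and 0.32, Zfp36l2 for 8 h minus 2 h between -0.39 and 0.22 and Zfp36l1 for 8 h minus 45 min between -0.40 and 0.14. In the same comparison, Zfp36l2 for 8 h minus 45 min was between -0.44 and 0.23, Zfp36l2 for 2 h minus 45 min with SB203580 between -0.47 and 0.082 and Zfp36l2 for 8 h minus 2 h with SB203580 between -0.092 and 0.96. In the same comparison, Zfp36l2 for 8 h minus 45 min with SB203580 was between -0.29 and 0.77. Between stresses at 45 min, Zfp36l2 for NaCl minus anisomycin was between -0.23 and 0.44 and Zfp36l2 for NaCl minus TNFα between -0.61 and 0.065.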
